A study of Mus musculus with 6 samples.

Results

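Loss of bile from the gut lumen was examined in mouse ileum by setting 2 arrays from bile duct ligated mice (BDL_Vehicle) against 2 arrays from sham operated mice (Sham_Vehicle). The groups were taken from the sample titles, and these were 4 of the 6 arrays of the study. All mice were wild type males of 8 to 10 months, mixed C57BL/6:129Sv in background and fed chow. Both groups were gavaged with vehicle (1% Tween80, 1% methylcellulose) from 2 days before the operation to 5 days past it. In BDL_Vehicle mice the common bile duct was tied with silk. In Sham_Vehicle mice it was exposed and moved but not tied. The other 2 arrays came from ligated mice given GW4064 at 100 mg/kg/day, an agonist of the bile acid receptor FXR. Those arrays entered the statistical fit only to lend their spread, and GW4064 in sham operated mice was not analysed here. Since nothing in the labels says that arrays stand for separate animals, p-values reflect the spread between samples alone, which may be technical. Whole ileum was used, so fewer cells of a type and less RNA per cell cannot be told apart.

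Bile acids released into the intestine emulsify dietary fat and are taken back up in the ileum by enterocytes, the absorptive cells of the epithelium. Inside the enterocyte they bind FXR (gene Nr1h4), which with its partner RXR switches on genes for bile acid binding and export and the hormone gene Fgf15. Bile also carries cholesterol, and some bile acids and xenobiotics activate the related receptors PXR, CAR and VDR, which control drug-metabolising enzymes. Enterocyte sterol controls SREBP2, which turns on cholesterol synthesis when sterol is scarce, and LXR, which turns on sterol efflux when sterol is plentiful.

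Promoter sequences of 2 genes are shown, from 2 groups described below, bile acid handling and cholesterol synthesis. None of the 19 measured genes of cholesterol synthesis passed the test (limma adjusted p under 0.05). Both are RefSeq promoters of assembly GRCm38.p6, running from 250 bases before the gene start to 50 after it. Fabp6, which encodes a carrier of bile acids inside the enterocyte, lies on the minus strand and its promoter at chr11:43601513-43601812. Capitals mark a match to GTCANTGAC, the core of the inverted repeat bound by FXR, with 1 mismatch, starting at position -220 from the gene start.
Fabp6: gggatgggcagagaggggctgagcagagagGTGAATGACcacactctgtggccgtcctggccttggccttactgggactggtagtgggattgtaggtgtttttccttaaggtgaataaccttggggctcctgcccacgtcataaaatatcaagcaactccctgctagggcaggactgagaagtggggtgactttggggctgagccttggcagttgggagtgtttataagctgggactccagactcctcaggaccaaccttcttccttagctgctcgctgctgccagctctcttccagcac
Hmgcs1, which encodes the cytosolic HMG-CoA synthase at the start of the sterol pathway, lies on the plus strand and its promoter at chr13:119690101-119690400. Capitals mark an exact sterol regulatory element, TCACCCCAC, starting at -137, and 4 CCAAT boxes, each on the opposite strand.
Hmgcs1: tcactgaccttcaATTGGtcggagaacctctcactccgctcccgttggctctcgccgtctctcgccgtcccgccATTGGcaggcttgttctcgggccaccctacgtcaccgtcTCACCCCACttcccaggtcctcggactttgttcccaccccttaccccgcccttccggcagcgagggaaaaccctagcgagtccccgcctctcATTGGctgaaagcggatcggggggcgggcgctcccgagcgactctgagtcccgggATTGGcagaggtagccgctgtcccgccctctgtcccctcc

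Both strands were searched, with up to 1 mismatch for the FXR core and the sterol element and none for CCAAT. No promoter sequence of Fgf15 was available, so that gene was not searched. Of 13 measured genes of the FXR list with a promoter in the table, 4 held the FXR core (Nr0b2, Fabp6, Hnf4a and Rxra), which was 25% of their 16 promoters against 9.86% of all 32851 promoters. Of 16 genes of cholesterol synthesis with a promoter, 15 held a CCAAT box (78.9% of their 19 promoters), against 37.4% of all promoters. The sterol element was found in 3 of these 16 (Hmgcs1, Nsdhl and Hsd17b7), 15.8% of their promoters against 9.82% of all, and each of the 3 held CCAAT boxes too. The motifs also occurred across the lists. Fabp6 held the sterol element as well (not in capitals above), as the only gene of the FXR list, 6.25% of its promoters. The FXR core was found in 3 genes of cholesterol synthesis, 15.8% of their promoters. A match is a description of letters and not a shown binding site, and elements with more differences from these motifs were not counted.

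Signals were scaled alike on every array, with a trimmed mean of 200.1. Over 13575 probe sets (not independent of one another), log2 signals of the arrays correlated at 0.971 within Sham_Vehicle and 0.974 within BDL_Vehicle. The pair of replicates numbered 1 was closer (0.98), and the pair numbered 2 was further apart (0.958). Signals differed by over 1 log2 unit at 300 probe sets (2.21%) between the Sham_Vehicle arrays and at 250 (1.84%) between the BDL_Vehicle arrays. The same gap was found at 162 (1.19%) between Sham_Vehicle and BDL_Vehicle replicate 1 and at 550 (4.05%) between Sham_Vehicle and BDL_Vehicle replicate 2. The differences between groups were therefore of the same order as those between replicates. The 18S rRNA control, by its 5' probe set, split the BDL_Vehicle group, at 88.7 in replicate 1 and 13.3 in replicate 2, against 88 and 67.3 in Sham_Vehicle. Sham_Vehicle replicate 2 had the highest 3' to 5' signal ratio for actin, a sign of RNA quality, at 1.73 against 1.09 to 1.22 in the other arrays. Fitting the 18S split as a term leaves BDL_Vehicle replicate 1 against both sham arrays, so values for each BDL_Vehicle array are given apart where they differ. The part of the 18S signal and of RNA quality in the results was not tested.

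**Figure D1:**
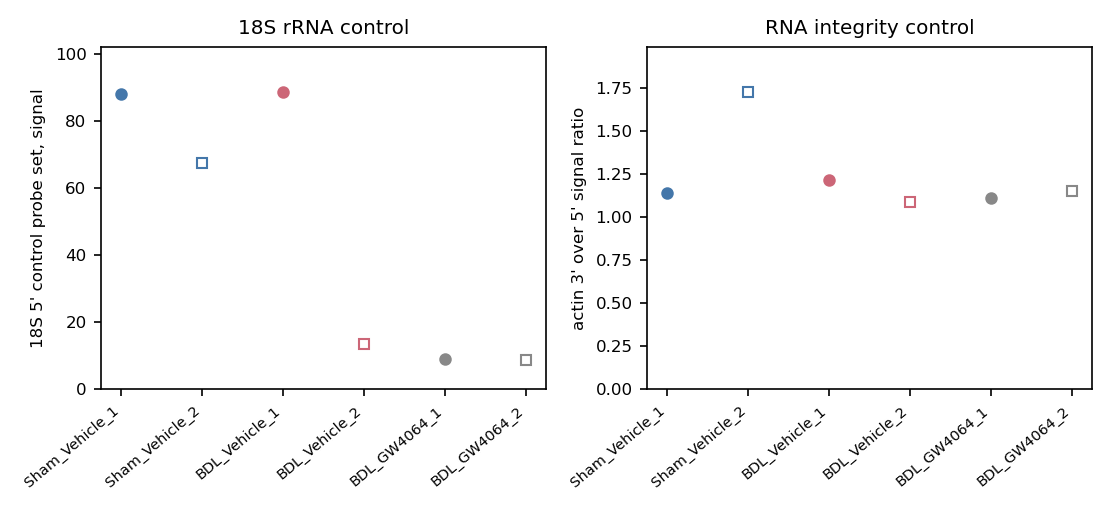
The left panel plots the signal of the 5' 18S rRNA control probe set and the right panel the actin 3' to 5' signal ratio, 1 point per array, for the 4 arrays compared and the 2 arrays of ligated mice given GW4064. BDL_Vehicle replicate 1 sits with the sham arrays in 18S signal (88.7) and replicate 2 does not (13.3), while Sham_Vehicle replicate 2 alone has an actin ratio of 1.73.

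The comparison asked which ileal transcripts differ between ligated and sham operated mice. Loss of luminal bile cannot be told apart here from other effects of tying the duct. Fgf15, Fabp6, Cyp3a11 and 1 of 3 probe sets of Cyp2b10 fell, and no probe set rose (limma, Benjamini-Hochberg adjusted p under 0.05 over 13575 probe sets). The calls made up 0.0295% of the probe sets tested. Before adjustment, p was under 0.05 at 865 probe sets (6.37%), with 460 higher (3.39%) and 405 lower (2.98%). With arrays centred on their medians this split was 622 higher and 246 lower. It was 840 and 452 when replicate 1 of Sham_Vehicle was left out, and it turned to 527 higher and 845 lower when replicate 1 of BDL_Vehicle was. Both ligated arrays lay below both sham arrays at 2543 probe sets (18.7%) and above them at 2467 (18.2%), so the groups did not overlap at 36.9%. By sign alone 51.7% of probe sets were lower and 48.3% higher.

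The arrays also form 2 independent pairs that share no array. Over 13575 probe sets, the difference between the arrays numbered 1 and the difference between those numbered 2 correlated at a Pearson r of 0.156 and a Spearman rho of 0.128, as a description across probe sets, and 54.6% had the same sign. Of the 162 probe sets past 1 log2 unit in the first pair, 113 (69.8%) had the same sign in the second and 29 were past 1 log2 unit the same way. With the arrays paired crosswise, r was 0.107, 383 probe sets were past 1 log2 unit in the first pair, 60.6% of these had the same sign in the second and 29 again passed in both. As a description, the same-sign shares of probe sets past 1 log2 unit, 69.8% and 60.6% in these pairings, stood beside 54.6% and 52.7% over all probe sets.

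A description chosen after the values were seen is the set that differed over 2-fold, on the log2(signal + 4) scale, in every pairing of a ligated with a sham array. It held 17 probe sets of 13 genes that were lower (0.125% of probe sets) and 1 that was higher (0.00737%). The lower genes were Fgf15, Nr0b2 and Fabp6 of the FXR pathway, the drug-metabolising genes Cyp3a11, Cyp2b10, Cyp2c55 and Ces2a, Abca1, which exports cholesterol, the thiolase of peroxisomes Acaa1a, the peptide hormone gene Sst, the ectonucleotidase Enpp3, the small GTPase Rab30 and Pip5k1a. The higher one was BC018473, at 79.4 and 58.2 in sham and 166.5 and 175.9 in ligated ileum. Pip5k1a rested on 1 of 4 probe sets (130 and 114.6 against 46.9 and 42.6), and its other probe sets had log2 fold changes of -0.32, -0.19 and 0.00. Rab30 read 75.7 and 86.4 in sham and 17.6 and 34.8 in ligated ileum.

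**Figure D2:**
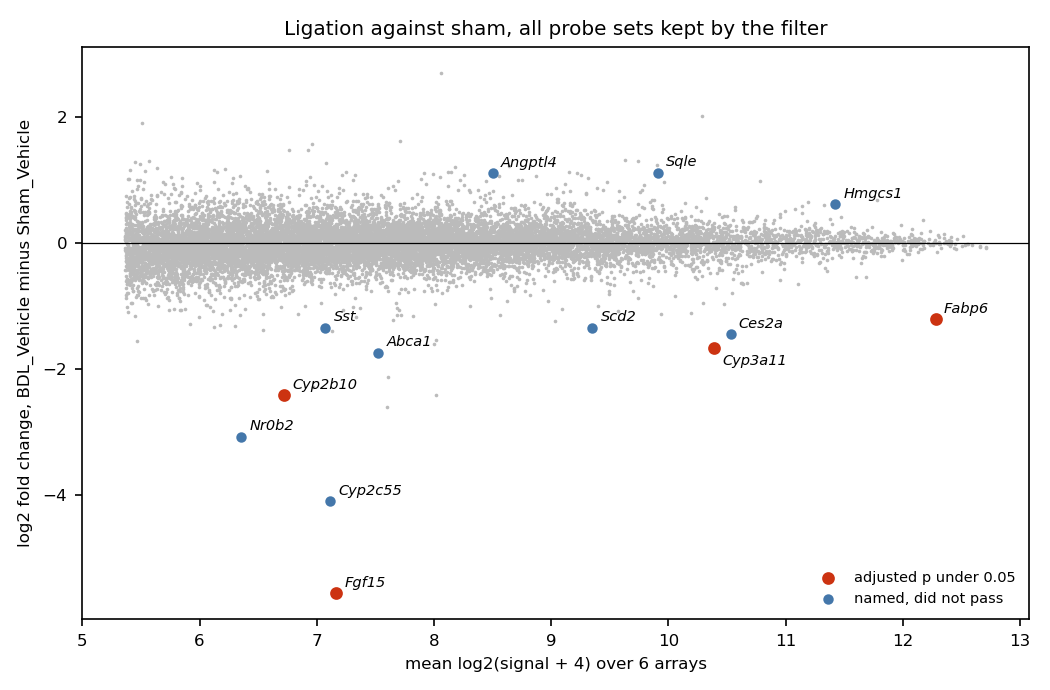
Each point is 1 of 13575 probe sets, with its mean log2(signal + 4) over 6 arrays on the x axis and the log2 fold change of BDL_Vehicle minus Sham_Vehicle on the y axis. The 4 that passed the adjusted threshold (Fgf15, Cyp2b10, Cyp3a11 and Fabp6) are all lower, and most other probe sets lie within 1 log2 unit of 0.

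Fgf15, the hormone that ileal enterocytes release to restrain bile acid synthesis in liver, read 316.2 and 479.6 in the sham arrays and 5.5 and 3.4 in the ligated arrays. Both ligated signals lay under 37.1, the signal floor of the probe sets analysed, so the fall was at least 9.57-fold (log2 fold change -5.55 ± 0.25 SE, limma adjusted p = 0.000344). Its call held under every alternative tried, including without each array in turn. Fabp6 read 6480.3 and 6650.7 in sham and 2620.5 and 3109.5 in ligated ileum, a 2.3-fold fall (log2 fold change -1.20 ± 0.11 SE, limma adjusted p = 0.0194). Unlike Fgf15, Fabp6 stayed among the brighter genes of the ligated arrays. Its call was lost without Sham_Vehicle replicate 1 (adjusted p = 0.112), without Sham_Vehicle replicate 2 (0.31), without BDL_Vehicle replicate 1 (0.145), with arrays centred on their medians (0.109), without the filter on low signal (0.118), in limma without the signal trend (0.317) and with the replicate block (0.0769).

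The receptor gene itself gave overlapping groups. Nr1h4 read 428.2 and 317.5 in sham and 539.8 and 423.8 in ligated ileum, with the groups overlapping (log2 fold change 0.37, 95% interval -0.09 to 0.83). Its partner Rxra read 335.5 and 353.7 against 385.6 and 392.4, and the regulator Hnf4a 2720 and 2856.6 against 2728.6 and 2916.7. Nr0b2, the FXR target that encodes the repressor SHP, read 63.2 and 112.3 in sham and 10.8 and 3.5 in ligated ileum, at least 2.15-fold lower without passing the threshold (limma adjusted p = 0.12). Nr5a2, which encodes the partner of SHP called LRH-1, was at 407.8 and 424.1 against 331.2 and 302.3, with no overlap (log2 fold change -0.39, limma adjusted p = 0.751).

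Among the transporters the pattern differed from that of Fgf15 and Fabp6. Slc10a2, the apical importer of bile acids, read 595.6 and 324.1 in sham and 507.2 and 357.1 in ligated ileum, so the replicates differed more than the groups (log2 fold change -0.05, 95% interval -0.88 to 0.79). That near-zero value turned positive with arrays centred on their medians (0.0049), with the 18S split as a term (0.20), without Sham_Vehicle replicate 1 (0.39) and without BDL_Vehicle replicate 2 (0.20). Slc51a, 1 subunit of the basolateral exporter, read 2955.8 and 2475.4 against 2097.4 and 2589.5, also overlapping (log2 fold change -0.21, 95% interval -0.53 to 0.10). Abcc2, an apical export pump named with its values known, was lower in both ligated arrays. It read 78.2 and 135.5 against 168 and 267 (log2 fold change -1.01 ± 0.42 SE, limma adjusted p = 0.751). Cyp27a1, which oxidises cholesterol on the alternative route to bile acids, read 385.1 and 459.9 in sham and 301 and 288.6 in ligated ileum (log2 fold change -0.51, limma adjusted p = 0.751).

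Of 26 listed genes of FXR and bile acid handling, 15 passed the filter on low signal. Of these 2 fell (Fgf15 and Fabp6), against 0.0379% of all 7919 genes, and 13 did not pass the test. At an unadjusted limma p under 0.05, 6 were lower and 0 higher, where 3.06% of all genes were lower and 2.95% higher (6.01% together). Counting direction alone, 10 were lower and 5 higher, with a median log2 fold change of -0.21 against -0.01 over all genes, of which 52.1% were lower and 47.9% higher. With an array left out in turn the median ran from -0.34 (without Sham_Vehicle replicate 2) to -0.15 (without Sham_Vehicle replicate 1). Both ligated arrays lay below both sham arrays in 7 of the 15, where 19.7% of all genes did. The median was -0.32 in BDL_Vehicle replicate 1 and -0.30 in replicate 2 against the sham mean.

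The drug-metabolising genes held the other calls. Cyp3a11, a major intestinal P450 that oxidises drugs and bile acids, read 2193.5 and 1955.1 in sham and 628.8 and 673.7 in ligated ileum, a 3.17-fold fall (log2 fold change -1.66 ± 0.12 SE, limma adjusted p = 0.00526). The call was lost when replicate 1 of Sham_Vehicle was left out (adjusted p = 0.073), when replicate 1 of BDL_Vehicle was (0.0888) and in limma without the signal trend (0.112). Cyp2b10, the standard target of CAR, read 253.7 and 242.3 against 45.2 and 41.6 on the probe set that passed, a 5.32-fold fall (log2 fold change -2.41 ± 0.24 SE, limma adjusted p = 0.0362). Its other probe sets, which can also bind related transcripts, read 656.2 and 613.3 against 123.3 and 108.6, and 506.8 and 444.1 against 56.3 and 99.2, each with an adjusted p of 0.2. In a fit of only the 4 arrays compared, the first of these other probe sets passed (limma adjusted p = 0.0147) and the second did not (0.0577). Without any single one of the 4 arrays the Cyp2b10 call was lost, with adjusted p between 0.129 (without Sham_Vehicle replicate 1) and 0.411 (without Sham_Vehicle replicate 2). It was also lost without the filter on low signal (0.118), in limma without the signal trend (0.119), with the replicate block (0.0769) and with the 18S split as a term (0.417).

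Several relatives had large differences without passing the threshold. Cyp2c55, a P450 of the lower gut, read 861.6 and 281.8 in sham and 31.5 and 19.9 in ligated ileum, at least 12.1-fold lower (limma adjusted p = 0.0851). The sham arrays differed widely from one another, and without Sham_Vehicle replicate 2 the gene passed (adjusted p = 0.0153), as it did with arrays centred on their medians (0.0182). Ces2a, a carboxylesterase that hydrolyses ester drugs and lipids, read 2080.3 and 2043.4 against 672.8 and 853.8 (log2 fold change -1.44 ± 0.18 SE, limma adjusted p = 0.12). Cyp2c65 read 936 and 749.8 against 418.8 and 297.6, and Cyp3a25 1803.5 and 1911.5 against 892.9 and 1280.9, both without overlap. The glutathione transferases Gstm1 (207.2 and 223.9 against 108.8 and 137.7) and Gstm3 (515.8 and 533.6 against 206.2 and 370) were lower in both ligated arrays too. Cyp3a25, Gstm1 and Gstm3 were named with their values known.

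Other genes of the same list did not share this. Cyp3a13, a second intestinal member of the Cyp3a family, read 1881.6 and 2207.6 in sham and 1836.3 and 1702.7 in ligated ileum (log2 fold change -0.20). Of the receptors for which the list is named, PXR and VDR were near their sham levels. Nr1i2 (PXR) read 169.9 and 144.8 against 174.5 and 182.1, and Vdr 1287.3 and 1160.4 against 1155.5 and 1238.2. Nr1i3 (CAR) was at 67.7 and 69.5 in sham and split the ligated arrays, at 32.5 and 86.4. The efflux pump gene Abcb1a split them as well, at 673.7 in BDL_Vehicle replicate 1 and 1887.7 in replicate 2 against 1694.7 and 1439 in sham. Of the 30 genes of PXR, CAR and VDR that passed the filter, 24 were lower and 6 higher, where 52.1% of all genes were lower, and the median log2 fold change was -0.33. In 16 of the 30 both ligated arrays lay below both sham arrays and in 1 above them, against 19.7% and 18.1% of all genes. At the brightest probe set of each gene 1 fell (Cyp3a11), and 10 were lower at an unadjusted limma p under 0.05 (3.06% of all genes). The median was -0.36 in BDL_Vehicle replicate 1 and -0.19 in replicate 2.

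**Figure D3:**
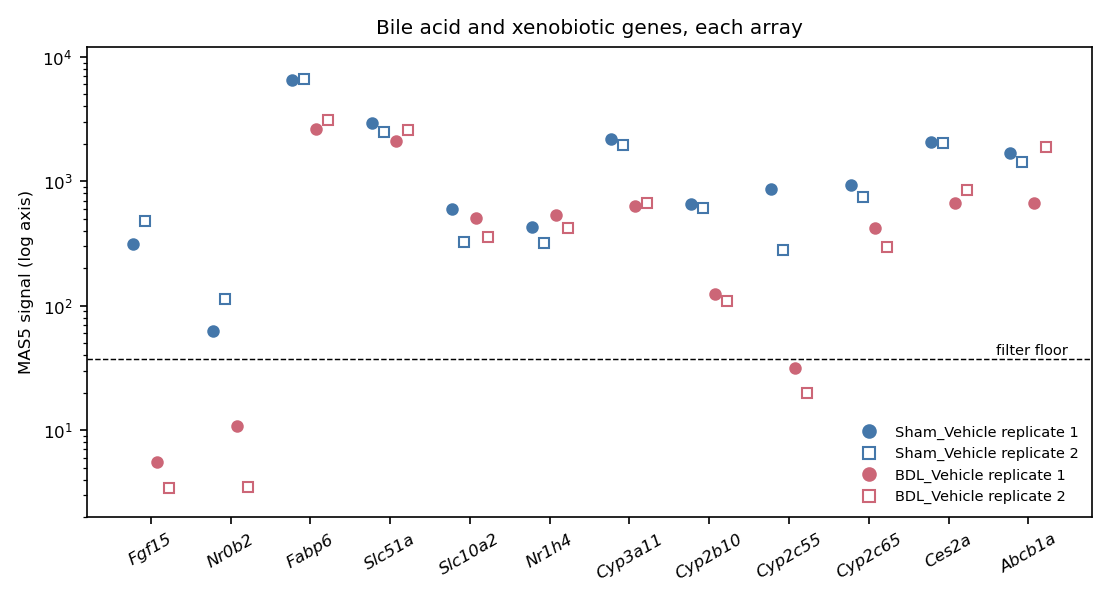
MAS5 signal on a log axis for 12 genes of bile acid and xenobiotic handling, with 1 point per array and the brightest probe set of each gene; the dashed line is the filter floor of 37.1. Fgf15, Nr0b2 and Cyp2c55 lie under the floor in both ligated arrays, Fabp6 and Cyp3a11 lie lower but well above it, and Slc51a, Slc10a2, Nr1h4 and Abcb1a overlap between groups.

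A separate list of other P450 and conjugating enzymes gave 44 of 57 lower, with 24 wholly below the sham arrays and 4 wholly above (19.7% and 18.1% of all genes). None passed limma's adjusted threshold, and 12 were lower and 2 higher at an unadjusted p under 0.05, where 3.06% and 2.95% of all genes were. The median log2 fold change was -0.20. Gstk1, a mitochondrial and peroxisomal glutathione transferase, read 312.2 and 370.8 against 184.5 and 240.5. Aldh1b1, a mitochondrial aldehyde dehydrogenase, read 2086.3 and 2302.4 against 1681.4 and 1803.4. The aldo-keto reductase Akr1b8 went the other way, at 70 and 45.5 against 96.1 and 104 (log2 fold change 0.78, limma adjusted p = 0.751). The median ran from -0.31 without Sham_Vehicle replicate 1 to -0.10 without Sham_Vehicle replicate 2.

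Cholesterol synthesis was the list with the highest median, at 0.55, among the lists with at least 10 genes past the filter. None of its 19 genes passed the adjusted threshold. Of the 19, 18 were higher, 15 lay wholly above both sham arrays (18.1% of all genes did) and 12 were higher at an unadjusted limma p under 0.05 (2.95% of all genes). The sham arrays themselves differed in these genes, with a median of -0.31 for replicate 2 minus replicate 1. Without Sham_Vehicle replicate 2 the list median was 0.36 and without Sham_Vehicle replicate 1 it was 0.70. It was 0.49 in BDL_Vehicle replicate 1 and 0.69 in replicate 2 against the sham mean, and between 0.49 and 0.60 under the other settings.

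Along the pathway, the early steps from acetyl units to isoprenoids were higher at each enzyme measured. Hmgcs1 read 2332.2 and 2108.3 in sham and 3207.7 and 3626 in ligated ileum (log2 fold change 0.62 ± 0.12 SE, limma adjusted p = 0.443), and its other 3 probe sets gave 0.53, 0.84 and 0.85. The mevalonate enzymes followed, with log2 fold changes of 0.50 for Mvk, 0.50 for Pmvk and 0.85 for Mvd. Idi1, the isomerase that makes the second isoprenoid building block, read 813.1 and 673.7 against 1189.9 and 1196.3. Fdps, which joins these blocks to farnesyl diphosphate, read 882.4 and 498.7 against 1065.9 and 1601.7. Ggps1, which leads away from sterols to the lipid tails of proteins, overlapped between groups, at 125.5 and 102 against 102.6 and 136.4.

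The committed steps to sterol held the 2 largest log2 fold changes of the list. Fdft1, which encodes squalene synthase, read 500.2 and 364.8 in sham and 766.2 and 1018.7 in ligated ileum (log2 fold change 1.04 ± 0.25 SE, limma adjusted p = 0.608). Sqle, the oxygen-requiring epoxidase after it, read 674.2 and 558.7 against 1206.8 and 1491.4 (log2 fold change 1.12 ± 0.17 SE, limma adjusted p = 0.2). Lss, which closes the sterol ring, read 208.1 and 159 against 258.5 and 357.9. Cyp51, the lanosterol demethylase, had the tightest replicates, at 428.2 and 413.5 against 687.8 and 691.1 (log2 fold change 0.71 ± 0.13 SE, limma adjusted p = 0.437).

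Later enzymes were mixed. Msmo1, which oxidises the methyl groups at carbon 4, read 1352 and 948.4 against 1730 and 2943.3, and Nsdhl of the same complex 407.8 and 311.5 against 503.6 and 544.5. Erg28 (521.2 and 462.4 against 600 and 647.5), Ebp (730.1 and 666.5 against 776.4 and 851.5) and Dhcr7 (396 and 363.6 against 424.8 and 568.8) were higher in both ligated arrays. Tm7sf2, Hsd17b7 and Sc5d overlapped between groups, with log2 fold changes of -0.01, 0.18 and 0.08. Their signs changed under some settings: Tm7sf2 was at 0.046 after median centring and 0.27 without Sham_Vehicle replicate 1, Hsd17b7 at -0.087 without Sham_Vehicle replicate 2, and Sc5d at -0.12 without BDL_Vehicle replicate 2.

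Genes controlled by LXR lay on the opposite side. Abca1, which loads cholesterol onto apolipoprotein A-I, read 299.8 and 471.9 in sham and 103.9 and 116.7 in ligated ileum, 3.33-fold lower (log2 fold change -1.74 ± 0.26 SE, limma adjusted p = 0.2). Its second probe set read 103.8 and 100.4 against 49.3 and 43.1. The paired transporters that return sterol to the lumen were both lower, Abcg8 at 794.2 and 1077.8 against 423.4 and 506, and Abcg5 at 1635.7 and 1896.8 against 963.1 and 1199.4. Mylip, the ligase that degrades the LDL receptor, read 439.3 and 483.9 against 250.6 and 209.1, and Abcg1 read 118.4 and 84 against 58.6 and 48.8. These 5 genes, of which Abcg1 was named with its values known, did not overlap between groups, with adjusted p from 0.2 to 0.736. The receptor Nr1h3 (LXR alpha) was at 218.9 and 216.7 against 231.3 and 264.7. Of the 12 LXR genes past the filter, 10 were lower, 7 wholly below the sham arrays and 1 wholly above (19.7% and 18.1% of all genes), with a median of -0.33 (-0.35 and -0.53 for the ligated arrays apart). With limma 0 passed the adjusted threshold and 5 were lower at an unadjusted p under 0.05 (3.06% of all genes).

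Other sterol and lipid synthesis genes did not follow the cholesterol enzymes as a body. Of 24 genes, 10 were lower and 14 higher, with a median of 0.10, which was -0.02 without Sham_Vehicle replicate 2, and 5 were lower and 4 higher at an unadjusted limma p under 0.05 (3.06% and 2.95% of all genes). The stearoyl-CoA desaturases, which make monounsaturated fatty acids, were lower. Scd2 read 1526.3 and 915.9 in sham and 495.3 and 435.7 in ligated ileum (log2 fold change -1.34 ± 0.25 SE, limma adjusted p = 0.437), and Scd1 266.1 and 195.6 against 66.1 and 108.1. The dimmest of 3 Scd2 probe sets overlapped between groups (407.7 and 71.7 against 109.1 and 164.3). The elongase Elovl5 was lower (640 and 528 against 428.3 and 330.2) and the elongase Elovl6 higher (395.9 and 348.4 against 563.3 and 607.5).

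**Figure D4:**
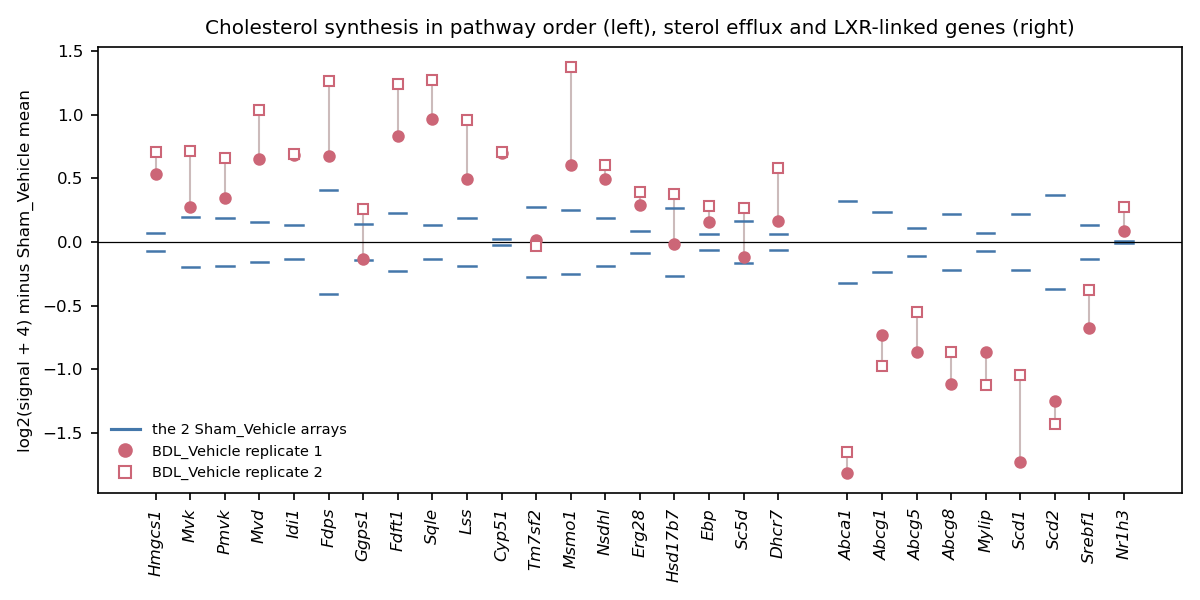
For each gene, the log2(signal + 4) of each BDL_Vehicle array minus the Sham_Vehicle mean (points) is set beside the 2 Sham_Vehicle arrays around that mean (blue bars), with cholesterol enzymes in pathway order on the left and LXR-linked and lipid genes on the right. Both ligated arrays lie above both sham arrays in 15 of the 19 enzymes, and both lie below for Abca1, Abcg1, Abcg5, Abcg8, Mylip, Scd1 and Scd2; none of these genes passed the adjusted threshold.

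Genes of fat handling were mostly near their sham levels. The list of dietary fat absorption and chylomicrons held 16 lower and 16 higher genes, with a median of 0.00 (0.05 after median centring and -0.10 without BDL_Vehicle replicate 2). None passed limma's adjusted threshold, and 1 was lower at an unadjusted p under 0.05 (3.06% of all genes). This was Cd36, a fatty acid receptor of the brush border, at 247.9 and 349.4 in sham and 121.9 and 158.8 in ligated ileum (log2 fold change -1.06 ± 0.21 SE, limma adjusted p = 0.448). Apoc3, an apolipoprotein of chylomicrons, read 2822.8 and 3273.7 against 2068.4 and 2587, and the lipin Lpin2 862.8 and 851.8 against 632 and 699. Fabp1, named after its values were seen, differed between replicates and not between groups, at 942.6 and 2374.6 in sham and 967.1 and 2611.7 in ligated ileum.

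Fatty acid oxidation and PPARA targets held 24 lower and 18 higher of 42 genes, with a median of -0.06. Of these 11 lay wholly below and 3 wholly above the sham arrays, where 19.7% and 18.1% of all genes did. At an unadjusted limma p under 0.05, 4 were lower and 1 higher (3.06% and 2.95% of all genes), and none passed after adjustment. The 24 include Pdk4, which gives no fold at this floor (41.8 and 27.3 against 16.1 and 24.5). Acaa1a, the peroxisomal thiolase, read 298.9 and 319 against 133.1 and 139.5 (log2 fold change -1.16 ± 0.15 SE, limma adjusted p = 0.121). Its probe set can also bind related transcripts, and a second one read 119.6 and 115.1 against 65.6 and 81.1. Angptl4, a secreted inhibitor of lipoprotein lipase and a PPAR target, was higher, at 215.5 and 248.6 against 568.9 and 450.1 (log2 fold change 1.12 ± 0.17 SE, limma adjusted p = 0.2). The pantetheinase Vnn1 read 1650.4 and 2370.6 against 1445.2 and 1114.8. The list median was -0.22 in BDL_Vehicle replicate 1 and 0.10 in replicate 2, so its sign depended on the array.

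Bile is needed to absorb vitamins A, D, E and K, and 17 genes of their uptake and response passed the filter of 38 listed. Of these 11 were lower and 6 higher, with a median of -0.03 (0.02 after median centring, and -0.24 without Sham_Vehicle replicate 1). With limma 0 passed the adjusted threshold, and 1 was lower and 1 higher at an unadjusted p under 0.05 (3.06% and 2.95% of all genes). The lower one was Cd36, which the fat absorption and PPARA lists also count, and the higher one was Rdh11. The retinol dehydrogenase Rdh11 read 224.8 and 185.9 against 318 and 275.2, and the retinoic acid receptor Rara 82.2 and 48.9 against 86.3 and 114.3. Vkorc1, which recycles vitamin K, read 227 and 259.5 against 197.7 and 184.3. The vitamin D targets S100g, Trpv6 and Cyp24a1 were below the filter.

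Brush border and nutrient genes held 22 lower and 20 higher of 42, with a median of -0.01 (0.04 after median centring, and -0.15 without Sham_Vehicle replicate 1). None passed limma's adjusted threshold, and 6 were lower and 2 higher at an unadjusted p under 0.05 (3.06% and 2.95% of all genes). Cubn, the ileal receptor for the complex of intrinsic factor and vitamin B12, read 2448.6 and 2794.4 in sham and 1629.3 and 1877.2 in ligated ileum (log2 fold change -0.58 ± 0.12 SE, limma adjusted p = 0.475). Lct, which encodes lactase, read 2652.8 and 3581.5 against 1935.1 and 2005.7. Fbp1, an enzyme of gluconeogenesis, was higher, at 264.7 and 306.4 against 465.9 and 555.3. Among 30 genes of ion and water transport the anion exchangers Slc26a2 (1245.4 and 1389.3 against 1022.2 and 948.3) and Slc26a6 (1628.6 and 1748.6 against 2063.1 and 2148.6) lay on opposite sides of their sham levels, without passing the test. The list median was -0.14 and came to -0.0088 without BDL_Vehicle replicate 1. In this transport list 0 passed limma's adjusted threshold. At an unadjusted p under 0.05, 1 was lower and 2 higher (3.06% and 2.95% of all genes).

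Defence genes were of interest to the study, which followed up Nos2, Ang, Car12 and Il18. Ang, an angiogenin family ribonuclease, read 61.8 and 119.5 in sham and 50.7 and 31.2 in ligated ileum (log2 fold change -1.04, limma adjusted p = 0.751). Rnase4, which shares its locus with Ang, was brighter, at 1362.1 and 1492.3 against 871.7 and 618.5 (log2 fold change -0.95 ± 0.18 SE, limma adjusted p = 0.437). Il18, an epithelial cytokine, read 303.6 and 325.4 against 464.9 and 378.7, and Car12, a carbonic anhydrase, overlapped at 199.7 and 135.8 against 157.5 and 106.3. Nos2, the inducible nitric oxide synthase, read 57.1 and 2.5 against 22.4 and 81.5, so its replicates differed more than its groups, and its log2 fold change of 1.25 became -0.36 without Sham_Vehicle replicate 2. None of these 5 genes passed the test. The 23 defence genes past the filter held 9 lower and 14 higher, with a median of 0.08 that was -0.09 without Sham_Vehicle replicate 2. At an unadjusted limma p under 0.05, 2 were lower and 2 higher (3.06% and 2.95% of all genes). Secreted phospholipase Pla2g2a was higher in both ligated arrays but differed between them, at 523 and 236.6 against 200.9 and 130.

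Interferon-responsive genes held 22 higher and 11 lower of 33, with a median of 0.14 that was 0.086 without Sham_Vehicle replicate 2 and 0.23 without Sham_Vehicle replicate 1. In 15 both ligated arrays lay above the sham arrays, against 18.1% of all genes. With limma 0 passed the adjusted threshold and 4 were higher at an unadjusted p under 0.05, against 2.95% of all genes. The immunoproteasome subunits Psmb9 (344.5 and 321.3 against 470.5 and 588.1) and Psmb8 (547.7 and 530.6 against 661.2 and 774.4) had the smallest p along with the nucleic acid sensor Zbp1 (106.9 and 74.1 against 202 and 132.5). The list of the unfolded protein response and heat shock held 29 higher of 38, with a median of 0.19 that was 0.11 without BDL_Vehicle replicate 1 and also without Sham_Vehicle replicate 2. By sign alone 47.9% of all genes were higher. In 16 of the 38 both ligated arrays lay above both sham arrays and in 4 below them (18.1% and 19.7% of all genes). In this list 5 were higher at an unadjusted limma p under 0.05 (2.95% of all genes), and 0 passed after adjustment. Creld2, of the endoplasmic reticulum stress response, read 221.9 and 257.4 against 360.6 and 305.4. Immediate early genes had a median of 0.06 over 18 genes, which ran from -0.0068 (without Sham_Vehicle replicate 2) to 0.17 (without BDL_Vehicle replicate 1), so it had no settled sign. Fos read 453.4 and 470.9 against 632.2 and 1042.7 and Egr1 172.5 and 147.3 against 233.1 and 239.1, while the phosphatase gene Dusp6 was lower, at 464.9 and 530.6 against 321.8 and 349.3 (log2 fold change -0.56, limma adjusted p = 0.751). Id1, a BMP target, read 519.9 and 475 against 760.8 and 793.9 (log2 fold change 0.64 ± 0.13 SE, limma adjusted p = 0.448).

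Cell cycle genes held 47 higher and 5 lower of 52, with 31 wholly above the sham arrays (18.1% of all genes) and a median of 0.31. None passed limma's adjusted threshold, and 6 were higher at an unadjusted p under 0.05 (2.95% of all genes). The mitotic kinase Plk1 read 112.5 and 92.4 in sham and 166.5 and 185.5 in ligated ileum, E2f8 101.8 and 94.7 against 160.4 and 146.1, and Ube2c 347.4 and 295.9 against 546.4 and 443.8. The median difference within the sham pair, -0.29 for replicate 2 minus replicate 1, was nearly as large as the group median. Without Sham_Vehicle replicate 2 the list median was 0.16. In the ligated arrays it was 0.46 in replicate 1 and 0.20 in replicate 2.

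Genes outside the lists with the smallest p among those whose groups did not overlap included Lgmn, which encodes the lysosomal protease legumain (134.9 and 162.9 against 303.3 and 359.8), and the cytokine Mif (397 and 367.7 against 702.6 and 665.4). The serine protease Prss30 read 540.7 and 349.9 against 979.9 and 871.3. On the lower side were Cstf3, a factor of mRNA 3' end cleavage (327.8 and 375.8 against 173.3 and 142.1), and the kinase Sgk3 (118.9 and 162 against 58.9 and 49). None passed the test, with limma adjusted p of 0.212, 0.437, 0.443, 0.2 and 0.391 in that order.

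Enpp3, an ectonucleotidase of the brush border that also marks basophils and mast cells, differed over 2-fold in every pairing of arrays on 3 probe sets, yet did not pass the test. Its brightest probe sets read 439.8 and 457.7 in sham and 94 and 106.8 in ligated ileum, and 418.3 and 421.6 against 139 and 146.5. The last of them read 223.9 and 336.5 against 46.3 and 62. The limma adjusted p was 0.736, 0.751 and 0.751 in the fit of all 6 arrays. The GW4064 arrays in that fit differed widely at each probe set, at 338.8 and 67.9, 574.5 and 132.2, and 297.2 and 45.4. In a fit of only the 4 arrays compared, Enpp3 passed at the first of these probe sets (limma adjusted p = 0.0165). At the others it did not (0.0577 and 0.0878).

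The tissue label was checked against markers of intestine and its neighbours. All 10 ileal markers with a probe set of their own passed the filter, as did all 14 enterocyte markers, and in sham ileum Fabp6, Muc3 and Clec2h were among the brightest. The enterocyte markers had summed signals of 53180 and 50979 in sham and 49448 and 54027 in ligated ileum, with a median log2 fold change of -0.01 (0.04 after median centring). Counted in the same way, among markers with a probe set of their own, 2 of 11 liver, 3 of 13 pancreas and 0 of 4 red cell markers passed the filter. The ileal markers had a median of -0.15 with Fgf15 and Fabp6 in the list, and of -0.25 without Sham_Vehicle replicate 2.

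Markers of secretory and chemosensory cells of the epithelium did not pass limma's adjusted threshold in either direction. Of 15 enteroendocrine markers past the filter, 13 were lower and 5 wholly below the sham arrays (19.7% of all genes). Their median was -0.25, from -0.42 without Sham_Vehicle replicate 1 to -0.11 without BDL_Vehicle replicate 2, with summed signals of 5254.6 and 6425.7 in sham and 4946.8 and 4375.1 in ligated ileum. Sst (somatostatin) read 177.5 and 249 against 76.6 and 84.9 (log2 fold change -1.34 ± 0.20 SE, limma adjusted p = 0.2), Nts (neurotensin) 1530.5 and 1932 against 1289.3 and 1201.1, and Sct (secretin) 621 and 665.7 against 458.6 and 523.2. Of the 6 tuft cell markers past the filter, of 16 listed, 5 were lower, with a median of -0.94. That median was -1.5 without Sham_Vehicle replicate 1, -0.22 without Sham_Vehicle replicate 2, and 0.032 with the filter at 60%, which left 1 marker. Dclk1 read 73.7 and 122.9 against 42.4 and 32.3 and Alox5ap 73.1 and 143.8 against 57.4 and 35.4. The sham arrays differed almost as much, with a median of 0.82 for replicate 2 minus replicate 1, summed tuft signals were 497.2 and 811.6 in sham and 420.9 and 445.9 in ligated ileum, and the defining factors Pou2f3 and Gfi1b were below the filter. Of 13 goblet cell markers 11 were lower and 2 higher, 5 wholly below and 2 wholly above the sham arrays (19.7% and 18.1% of all genes). The goblet median was -0.09 (-0.04 after median centring, with 8 lower, and -0.19 without Sham_Vehicle replicate 2). Sytl2 read 222.1 and 204.7 in sham and 165.6 and 112.6 in ligated ileum, Klk1 1220.7 and 1034.7 against 933.8 and 781.5, and Ramp1 161.7 and 147.5 against 117.8 and 108.4. The sialyltransferase gene St6galnac1 was higher, at 147 and 121.8 in sham and 243 and 257.9 in ligated ileum. At an unadjusted limma p under 0.05 there were 3 lower enteroendocrine, 2 lower tuft, and 2 lower and 1 higher goblet cell markers, where 3.06% of all genes were lower and 2.95% higher.

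Tissues of the gut wall varied between replicates. Of 13 smooth muscle markers past the filter, Cnn1 and Des were under the floor in both groups compared and give no direction. Of the other 11, 10 were lower and 1 higher, with a median of -0.48 in BDL_Vehicle replicate 1 and -0.14 in replicate 2. Summed signals of the 13 were 3676 and 3863.4 in sham and 3145.5 and 3661.6 in ligated ileum. Of 5 mesenteric adipose markers, Adipoq gives no fold at this floor and the other 4 were lower in the group mean, with a median over the 5 of -1.27 in BDL_Vehicle replicate 1 and 0.18 in replicate 2, and summed signals of 384.4 and 808.1 against 236.8 and 582. Among them the fatty acid binding protein Fabp4 read 84.9 and 325.9 against 71.3 and 194.3, and Lpl 80.3 and 94.3 against 33.7 and 62. Signals of muscle and fat markers thus differed between arrays of 1 group, and their part in the other results was not tested.

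**Figure D5:**
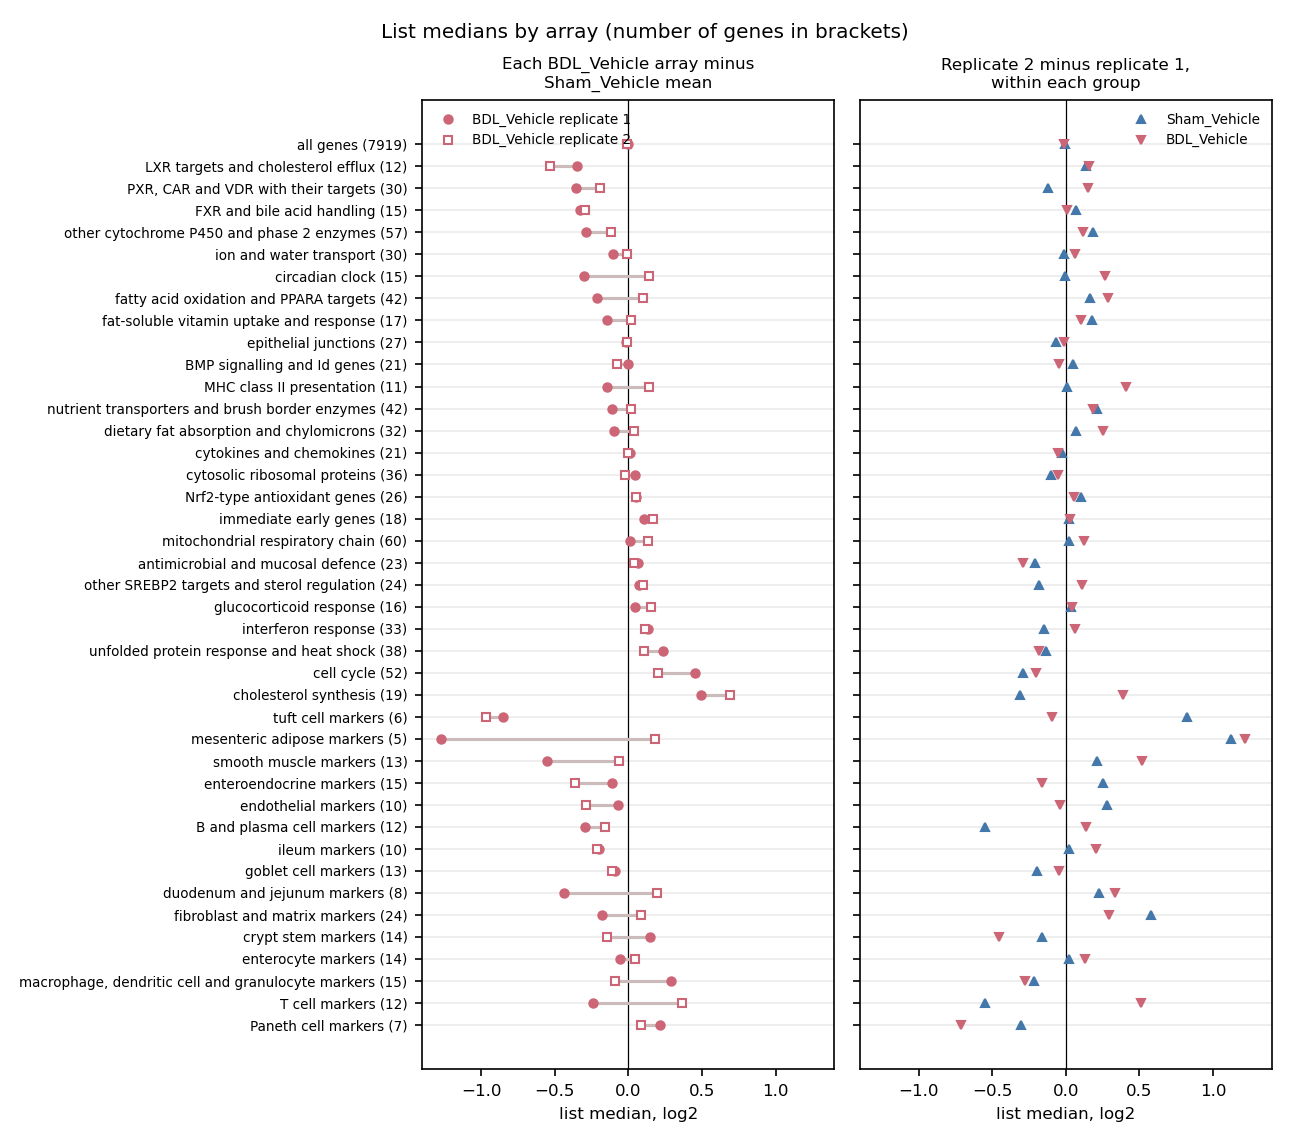
For each gene list, with its number of genes past the filter in brackets, the left panel gives the median log2 difference of each BDL_Vehicle array from the Sham_Vehicle mean and the right panel the median log2 difference of replicate 2 from replicate 1 within each group. Cholesterol synthesis (0.49 and 0.69) and the LXR list (-0.35 and -0.53) have both ligated arrays on 1 side of 0, while the adipose list (-1.27 and 0.18) does not, and the tuft and adipose lists have sham replicates 0.82 and 1.12 apart.

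Several clock genes differed more between replicates than between groups. Nr1d1, a repressor of the circadian clock that was among the genes on which the ligated arrays differed most, read 104.7 and 195.2 in sham and 52.1 and 217.2 in ligated ileum. Its relative Nr1d2 read 275.9 and 455 against 150.2 and 494.5. Other clock genes, named after their values were seen, ran alike, with Arntl at 292.8 and 172 against 334.2 and 140.8, Nfil3 at 125.2 and 82.4 against 162.6 and 56.2, and Dbp at 97.6 and 175.4 against 69 and 165.8. In each of these 5 genes, chosen for it, both replicates numbered 1 lay on 1 side and both numbered 2 on the other, and other clock genes such as Per2 (72.6 and 83.7 against 124.5 and 84.5) did not follow that split. The time of day of tissue collection is not in the labels. Of the 15 clock genes past the filter, 12 overlapped between groups, where 37.8% of all genes did not overlap. With limma 0 passed the adjusted threshold and 1 was higher at an unadjusted p under 0.05 (2.95% of all genes). This was Per1, which also responds to glucocorticoids, at 48.7 and 34.8 against 68 and 66.7.

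The genes on which the ligated arrays differed most were Hspa1b, Car3, Igkv14-111, Nr1d1, Gria2 and Mbl2. Hspa1b, a heat shock chaperone, read 334.7 in BDL_Vehicle replicate 1 and 45.3 in replicate 2, on both sides of the sham arrays at 107.8 and 79.1. Car3, a carbonic anhydrase of muscle and fat, read 20.2 and 143.1 against 75.1 and 209 in sham. For these genes the mean of the ligated group does not describe either array.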

How the data were processed

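RNA of whole ileum was measured on single-colour Affymetrix Mouse Genome 430A 2.0 arrays, 2 per group. The deposited values were intensity values on a linear scale, which the submitters' processing notes name as MAS5 signals, and each array had been scaled to the same trimmed mean. The version and settings of MAS5, and its detection calls, are not given in the sources used here. Precision is limited by the number of arrays, 2 in each group.

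Of 22690 probe sets, 64 controls were left out. Signals were used as log2(signal + 4), which understates the change of dim genes. Probe sets in the lowest 40% by mean were dropped, which left 13575 and a floor signal of 37.1. A group with both arrays under that floor was set to it, and the fold is then given as "at least". Names came from probe sets annotated to 1 gene (20380) through the platform annotation, and 20351 of their gene identifiers were found in a RefSeq table of assembly GRCm38.p6. For lists, a gene was represented by its brightest probe set (7919 genes).

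Differences were tested in limma 3.58.1 (R 4.3.3) over all 6 arrays, with 1 mean per group, a variance prior that followed signal and Benjamini-Hochberg adjustment over 13575 probe sets at 0.05. The procedure was tested on simulated data. Replicate numbers did not pair the samples by the check used (correlation of deviations 0.0369), so no block was used. Named genes were up to 15 a direction, taken by size of change from those called, then those with the smallest p whose arrays did not overlap, a set of bile acid genes and the 4 genes followed up in the study, up to 4 members of each list with the smallest p, all cholesterol enzymes, and 6 genes on which the ligated arrays differed most. Some other members of the lists were named outside this rule, with their values known. Among them were Abcc2, Abcg1, Cyp3a25, Gstm1 and Gstm3, and also Cyp3a13, Abcb1a and Fabp1. The receptor and regulator genes Rxra, Hnf4a, Nr5a2, Nr1i2, Nr1i3, Vdr and Nr1h3 were named in the same way. Lists were described by counts and medians, without a test. The members, lists and rules were chosen with earlier results of these data known. The alternatives tried were other scalings, pseudocounts of 1 and 16, no filter or a filter at 60%, other limma priors, only the 4 arrays, a replicate block, the 18S split as a term, and leaving out each array.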

Additional observations from a re-analysis of the deposited data

How the results depend on the processing

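Probe sets called lower numbered 4 as reported, with Fgf15 called under every setting tried. They numbered 2 without the filter on low signal, 1 in limma without the signal trend, 6 in a fit of only the 4 arrays compared, which added a probe set of Enpp3 and another of Cyp2b10, and 2 with the replicate block, which kept Cyp3a11 and Fgf15. The labels number replicates alike in each group, but the samples share only a number, and under that block 759 probe sets had an unadjusted p under 0.05. With an array left out in turn, 1 to 3 probe sets were called lower and 0 to 1 higher, the 1 being a probe set without a single gene name, called without Sham_Vehicle replicate 1. Probe sets with an unadjusted p under 0.05 numbered 865 as reported, 1319 without the filter, 502 with the 18S split as a term, and 455 to 1372 with an array left out.

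Of 1923 fold changes of named genes under alternatives, 1869 kept their direction and side of the threshold and 32 changed sign, none of them of a called gene. After median centring, Slc10a2 was at 0.0049 and Tm7sf2 at 0.046. With the 18S split as a term, which gives the same values as leaving out BDL_Vehicle replicate 2, the values were 0.20 for Slc10a2, 0.20 for Npas2, -0.14 for Ggps1, 0.018 for Tm7sf2, -0.018 for Hsd17b7, -0.12 for Sc5d and 0.87 for Igkv14-111. With an array left out in turn, log2 fold changes ran from -0.48 to 0.39 for Slc10a2, -0.36 to 2.87 for Nos2, -0.73 to 0.20 for Npas2, -1.22 to 0.48 for Nr1d2, -2.42 to 0.18 for Car3, -1.43 to 0.46 for Fabp4 and -0.14 to 0.26 for Ggps1. In the same way they ran from -0.28 to 0.27 for Tm7sf2, -0.087 to 0.45 for Hsd17b7, -0.12 to 0.27 for Sc5d, -0.97 to 1.81 for Hspa1b, -1.20 to 0.87 for Igkv14-111, -1.39 to 0.59 for Nr1d1 and -0.70 to 1.10 for Mbl2. The cause was not tested. List medians moved by more than their replicate spread in 84 of 765 cases, and in none when genes without a measurable fold were left out, an alternative chosen after seeing the data. The medians of the FXR, PXR, LXR and cholesterol synthesis lists kept their sign in all alternatives, but this was not particular to them. Others that did so included cell cycle (0.16 to 0.46), interferon response (0.086 to 0.23) and the unfolded protein response (0.11 to 0.24). On the lower side they included the other P450 and conjugating enzymes (-0.31 to -0.099) and the enteroendocrine, smooth muscle and goblet cell markers. The tuft median was 0.032 with the filter at 60%. Probes near the floor, such as Fgf15 in ligated ileum, give only a bound.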
